A study of Mus musculus with 4 samples.

Results

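Venous endothelial cells (ECs) of the mouse lung were chosen by a rule on the UMI counts of single cells (unique molecular identifiers, each tagging a captured RNA molecule). A cell was taken when Cdh5, Cldn5, Egfl7, Ramp2 and Calcrl, genes of the endothelium, had at least 4 UMIs in all and the leukocyte gene Ptprc and the platelet gene Pf4 had 0, which is called the endothelial gate here. It also had to hold at least 2 of the 5 vein markers Slc6a2, Bst1, Car8, Selp and Cpe, and fewer than 3 of the 5 aerocyte genes Ednrb, Car4, Fibin, Tbx2 and Chst1. By this rule 186 of 2976 cells of the gate and of 9363 cells in all were venous members. The other gate cells comprised 364 aerocytes, 34 arterial, 20 lymphatic and 2372 capillary or other cells, and served as the comparison. Since the 17 rule genes selected the cells, their levels are given as a description with no test.

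Whole lungs of 4 mice were profiled by droplet single-cell RNA-seq. The 2 WT mice carried the genotype ERG fl/fl, that is, floxed alleles and no Cre, and the 2 ERG CKO mice the genotype CDH5-CreER(T):ERG fl/fl, in which the endothelial Cdh5 promoter drives a tamoxifen-inducible Cre. Tamoxifen was given as 5 injections of 0.5 mg, 1 per day, and lungs were taken 90 days later; the labels give no age for the mice. Each library came from 1 mouse and is named by group and replicate, for example WT replicate 1. The 4 libraries held 11263911 to 18646776 UMIs, and 7 cell barcodes occurred in more than 1 library, 2 of them borne by members. By their X- and Y-linked transcripts replicate 1 of each group was female and replicate 2 male, so sex went with the replicate number and not with the group.

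Pulmonary veins carry oxygenated blood from the alveolar capillaries to the heart. Venous identity in endothelium is maintained by the nuclear receptor Nr2f2 (COUP-TFII), and veins and venules are known for storing von Willebrand factor and P-selectin in Weibel-Palade bodies and for the adhesion molecules by which leukocytes leave the blood. ERG is an ETS-family transcription factor of endothelium, known for sustaining junctions and for restraining inflammatory adhesion genes. The question for these cells was how their number and their transcripts differed between WT and ERG CKO lungs.

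Members numbered 40 and 43 in the WT libraries and 79 and 24 in the ERG CKO libraries, replicate 1 first as in all lists of values below, with 266789, 276977, 515812 and 144404 UMIs. Their depth was close between libraries, at median values of 5711, 5678, 6393 and 6398 UMIs per cell. Levels are given as CPM, that is UMIs of a gene in the members scaled to the usual fixed total per library. In ERG CKO replicate 2, the library with fewest members, 1 UMI was worth 6.93 CPM, against 1.94 CPM in ERG CKO replicate 1. None of the members was called a doublet, and 9 had over 10% mitochondrial UMIs. Members with at least 2 markers of another lineage were 42.5% and 32.6% of WT members, and 68.4% of those of ERG CKO replicate 1 against 33.3% in replicate 2.

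Slc6a2, the noradrenaline transporter, was the vein marker found most often, in 162 of 186 members. Its level was 2043 and 1935 CPM in WT versus 1853 and 1274 in ERG CKO, against 9.88 and 14.3 CPM in WT versus 41.2 and 13.1 in ERG CKO in the other gate cells. Bst1, an ADP-ribosyl cyclase of the cell surface, was found in 141 members, at 371 and 451 CPM in WT versus 403 and 312 in ERG CKO. Car8, a carbonic anhydrase-related protein, was found in 125 members, at 285 and 314 CPM in WT versus 285 and 402 in ERG CKO. Cpe, carboxypeptidase E, was found in 98 members, at 431 and 422 CPM in WT versus 299 and 187 in ERG CKO. Selp, the P-selectin that slows leukocytes on the vessel wall, was found in only 54 members, at 304 and 303 CPM in WT versus 153 and 76.2 in ERG CKO. Selp and Cpe were thus lower in both ERG CKO libraries than in both WT libraries, whereas Slc6a2, although also lower in both, differed most in ERG CKO replicate 2, and Bst1 and Car8 overlapped. In T cells, which should lack these genes, UMIs of the 5 markers were found in 0.196% to 1.04% of 1534 cells at a median of 6301.5 UMIs. Of the aerocyte genes, Car4 was at 11.2 and 3.61 CPM in WT versus 29.1 and 48.5 in ERG CKO in members and 417 and 685 CPM in WT versus 463 and 611 in ERG CKO in the other gate cells.

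The label was checked with genes outside the rule. Vwf, von Willebrand factor, was found in 177 of 186 members, and stood at 3055 and 3636 CPM in WT versus 1917 and 2001 in ERG CKO, against 213 and 178 CPM in WT versus 239.9 and 167 in ERG CKO in the other gate cells. Nr2f2 was at 281 and 184 CPM in WT versus 339 and 229 in ERG CKO, and elsewhere in the gate at 76.2 and 43.04 CPM in WT versus 70.8 and 27.1 in ERG CKO. Vcam1, a leukocyte adhesion molecule, was at 603 and 1480.3 CPM in WT versus 554 and 256 in ERG CKO in members and 33.3 and 22.4 CPM in WT versus 66.1 and 73.9 in ERG CKO in other gate cells. Lyve1, a hyaluronan receptor shared by lymphatics and lung veins, reached 2493 and 2397 CPM in WT versus 3243 and 2409.9 in ERG CKO, against 897 and 811 CPM in WT versus 1516 and 701 in ERG CKO. Ephb4, the ephrin receptor of developing veins, was less selective, at 236 and 253 CPM in WT versus 180.3 and 256 in ERG CKO against 153 and 156 CPM in WT versus 139 and 131 in ERG CKO. The lymphatic genes Mmrn1, Reln and Ccl21a had 0 UMIs in the members of all 4 libraries, and Ackr1, the chemokine receptor of many systemic venules, had 3 UMIs in all. All 5 mesothelial markers were at 0 as well. Vwf, Nr2f2, Vcam1 and Lyve1 were thus higher than elsewhere in the gate in every mouse. Arterial markers, at least 2 of them, were found in 8 members, and lymphatic markers in 4.

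Among gate cells other than aerocytes, Vwf level climbed with the number of vein markers in a cell. It was 207 CPM in the 2225 cells with none, 453 CPM in the 201 cells with 1, just outside the rule, 1513 CPM in the 72 members with 2, and 2138, 3090 and 4183 CPM in the 45, 44 and 25 members with 3, 4 and 5. Depth climbed alongside, from a median of 3476 UMIs per cell with none to 7990 UMIs with 5 markers, and its part was not tested. Vcam1 was at 342, 261, 972 and 1697 CPM in members with 2, 3, 4 and 5 markers. Gpihbp1, a capillary lipase anchor, was at 686, 824, 404 and 466 CPM. Cells just inside the rule thus held less Vwf and more Gpihbp1 than members with 4 or 5 markers.

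Sequences upstream of 4 genes are shown because the results below turn on them: Selp and Nr2f2 as genes of vein identity, and Igfbp5 and Ptgs2 as genes with large differences between the groups or cell classes. Each is the 250 bases before the transcription start, on the strand of the gene, from RefSeq (GRCm38.p6), and capitals mark AGGAAG, a short form of the ETS-family motif, or CTTCCT, its reverse complement.
Selp (chr1:164115014-164115263, strand +): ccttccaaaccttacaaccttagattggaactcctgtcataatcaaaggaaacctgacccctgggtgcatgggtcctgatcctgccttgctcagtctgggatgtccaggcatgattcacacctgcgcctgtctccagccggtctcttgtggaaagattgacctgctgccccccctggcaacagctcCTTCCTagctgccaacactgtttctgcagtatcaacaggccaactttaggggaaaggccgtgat
Nr2f2 (chr7:70366747-70366996, strand -): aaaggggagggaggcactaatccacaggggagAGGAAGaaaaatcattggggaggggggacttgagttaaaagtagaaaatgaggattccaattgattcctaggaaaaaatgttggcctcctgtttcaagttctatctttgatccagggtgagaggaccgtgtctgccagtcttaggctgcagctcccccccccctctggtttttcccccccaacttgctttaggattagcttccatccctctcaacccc
Igfbp5 (chr1:72874866-72875115, strand -): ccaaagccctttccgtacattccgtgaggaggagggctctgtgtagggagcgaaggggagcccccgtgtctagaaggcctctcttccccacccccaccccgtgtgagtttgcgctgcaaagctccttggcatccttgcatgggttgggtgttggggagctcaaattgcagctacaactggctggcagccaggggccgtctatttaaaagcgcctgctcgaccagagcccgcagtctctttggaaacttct
Ptgs2 (chr1:150099781-150100030, strand +): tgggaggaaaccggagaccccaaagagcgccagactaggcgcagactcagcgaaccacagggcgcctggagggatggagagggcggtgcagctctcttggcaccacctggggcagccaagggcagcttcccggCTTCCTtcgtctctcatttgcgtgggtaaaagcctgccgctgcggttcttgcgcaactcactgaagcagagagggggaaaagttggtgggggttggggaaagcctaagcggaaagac
Selp, Nr2f2 and Ptgs2 held 1 match each and Igfbp5 held 0. Of all 32851 RefSeq promoter windows of this length, 29.5% held a match on either strand, so a match is a description of the letters and not a binding site.

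The transcripts that set members apart were described by ratio to the other gate cells of the same mouse, as log2 of CPM plus 10. Among 3468 genes outside the rule that were found in at least 25% of members, 56 were higher by at least 1 on this scale in all 4 libraries and 17 by at least 2. The 15 genes with the highest value in their lowest library were Ch25h, Cytl1, Vwf, Fgl2, Samd5, Itgb4, Amigo2, Chn2, Prss23, Fbln5, Lpcat2, Igfbp5, Dnm3, Vegfc and Cthrc1. Because the cells were chosen by vein markers, these ratios carry no test.

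Ch25h, the cholesterol 25-hydroxylase, led with 509.8 and 596 CPM in WT versus 351 and 201 in ERG CKO, against 13.6 and 4.004 CPM in WT versus 32.9 and 7.43 in ERG CKO in the other gate cells. Cytl1, a small secreted protein, was at 1027 and 1274 CPM in WT versus 452 and 1170.3 in ERG CKO and elsewhere at 16.7 and 15.01 CPM in WT versus 46.5 and 31.03 in ERG CKO. Both lay far above the other gate cells in every mouse, with ERG CKO replicate 1 lowest for Cytl1. Of genes for secreted and extracellular products, Prss23, a serine protease, was at 1807 and 2296 CPM in WT versus 1459.8 and 1891 in ERG CKO, Fgl2, a fibrinogen-like protein with prothrombinase activity, at 221 and 299.7 CPM in WT versus 143 and 152 in ERG CKO, and Vegfc, the growth factor of lymphatic vessels, at 514 and 412 CPM in WT versus 322 and 242 in ERG CKO. Fgl2 and Vegfc, like Vwf, were lower in both ERG CKO libraries than in both WT libraries, whereas Prss23 overlapped. Fbln5, which organises elastic fibres, was at 262 and 274 CPM in WT versus 246 and 125 in ERG CKO. Igfbp5, an IGF-binding protein, went the other way, at 184 and 129.97 CPM in WT versus 975 and 464 in ERG CKO.

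Of genes for adhesion and signalling, Itgb4, the beta subunit of a laminin-binding integrin, was at 93.7 and 101 CPM in WT versus 128 and 111 in ERG CKO, against 5.86 and 3.34 CPM in WT versus 12.96 and 7.43 in ERG CKO in other gate cells. Amigo2, a cell-surface adhesion protein, was at 179.9 and 267 CPM in WT versus 159 and 346 in ERG CKO. Chn2, a Rac GTPase-activating protein, was nearly level over the mice, at 71.2 and 86.6 CPM in WT versus 83.4 and 83.1 in ERG CKO. Dnm3, a dynamin, Lpcat2, an enzyme of platelet-activating factor synthesis, Samd5 and Cthrc1 completed the set. Over these 4 genes and the 4 mice, levels were 48.5 to 187 CPM in members and 1.33 to 18.9 CPM in the other gate cells.

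**Figure D1:**
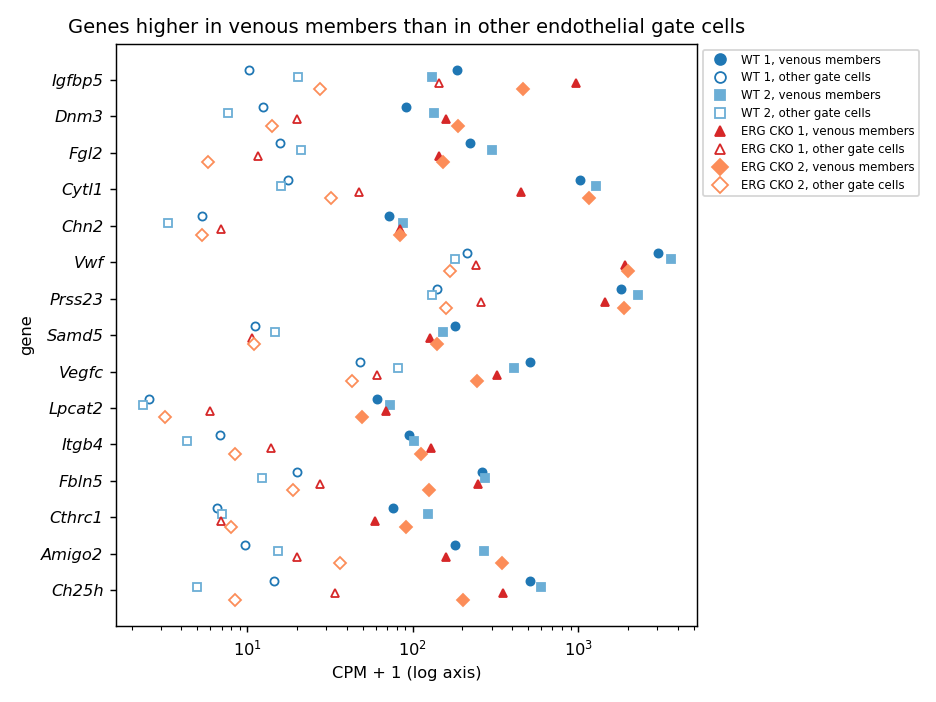
CPM plus 1 on a log axis for the 15 genes with the highest lowest-library ratio of venous members (filled) over other endothelial gate cells (open), in the 4 libraries. In each gene all filled points lie to the right of the open point of the same library; Vwf was at 1917 to 3636 CPM in members and 167 to 240 CPM in other gate cells.

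Transcripts lower in members were described among the same 3468 genes. Genes found in under 25% of members could not enter, so the count of lower genes cannot be set against that of higher genes. Of the 3468 genes, 11 were lower in members by at least 1 on the log2 scale in all 4 libraries. The genes named here were chosen after their values were seen. The 11 were Efnb2, Kitl, Hopx, Tbx3, Hilpda, Atp8a1, Cxcl12, Mapt, Sept4, Lyz2 and Sftpc. Values were lower for Efnb2, the arterial ligand ephrin-B2, at 78.7 and 105 CPM in WT versus 87.2 and 34.6 in ERG CKO against 388 and 349.7 CPM in WT versus 269 and 304 in ERG CKO, and Kitl, the ligand of Kit, at 161 and 79.4 CPM in WT versus 138 and 201 in ERG CKO against 452 and 503 CPM in WT versus 419.7 and 516 in ERG CKO. Hopx, a homeodomain protein, was at 119.9 and 68.6 CPM in WT versus 73.7 and 132 in ERG CKO against 555 and 734 CPM in WT versus 564 and 537 in ERG CKO. Sftpc, the surfactant gene of alveolar type 2 cells, and Lyz2, a lysozyme of myeloid and type 2 cells, are epithelial or myeloid genes. Sftpc was at 67.5 and 28.9 CPM in WT versus 242 and 55.4 in ERG CKO in members and 9864 and 5504 CPM in WT versus 1708 and 1899 in ERG CKO in the other gate cells. All 9 epithelial markers had UMIs in the other gate cells of every library, summing to 20977 and 6072 CPM in WT and 2229 and 2208 CPM in ERG CKO, against 90.03 to 502 CPM in members. Epithelial RNA was thus lower in both ERG CKO libraries than in both WT libraries among the cells used for comparison.

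Erg itself was low. It had 12 and 32 UMIs in members of the WT libraries and 40 and 7 in those of the ERG CKO libraries. That is 44.98 and 116 CPM in WT versus 77.5 and 48.5 in ERG CKO, and the groups overlapped (log2 fold change −0.29, SE 0.436, adjusted p = 0.951, edgeR). In the other gate cells it was at 91.7 and 84.1 CPM in WT versus 109.7 and 91.3 in ERG CKO, and in T cells 1.24% of cells held a UMI against 31.2% of members. A count over the whole gene includes transcripts that lost the floxed exons, so Erg does not check the labels here.

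Members made up 5.19% of the gate in WT replicate 1 (95% Wilson interval 3.84 to 6.997) and 5.44% in WT replicate 2 (4.06 to 7.24). Shares in ERG CKO were 9.52% (7.70 to 11.7) in replicate 1 and 4.10% (2.77 to 6.03) in replicate 2. The groups overlapped, since 1 ERG CKO library lay above and 1 below both WT libraries, with means of 5.32% ± 0.171 and 6.81% ± 3.83 (SD, n = 2) and an exact two-sided permutation p of 1, where 0.333 is the smallest that 2 mice against 2 allow. Intervals cover counting error only. Thinned to 1000 UMIs per cell, which left out 8 members, WT replicates 1 and 2 had shares of 1.69% and 3.796%, and ERG CKO replicates 1 and 2 of 4.49% and 1.43%. On the cells per class edgeR gave a log2 fold change of 0.38 (SE 0.48, adjusted p = 0.484). The difference of 1.49 percentage points changed sign without ERG CKO replicate 1 (−1.21 points). Fewer cells of a type and a loss of its markers cannot be told apart in such shares. No difference in the venous share was detectable with these mice.

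**Figure D2:**
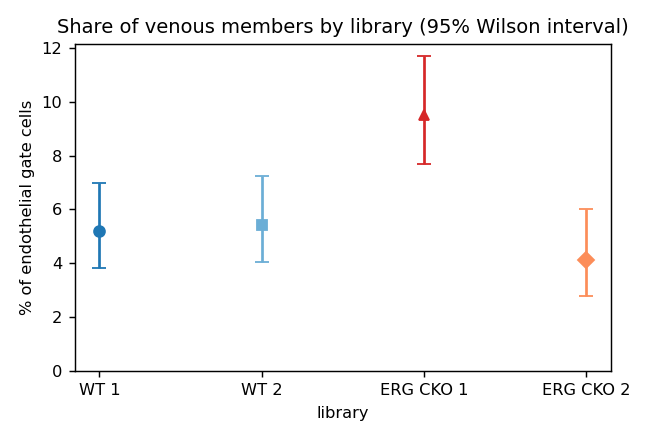
Share of venous members among endothelial gate cells in each library, in percent, with the 95% Wilson interval of counting as bars. The WT libraries are at 5.19% and 5.44%, and the ERG CKO libraries lie on both sides, at 9.52% and 4.10%.

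Members also differed in how many vein markers they held. Just 2 of the 5 vein markers were held by 10 of 40 and 12 of 43 WT members, and by 37 of 79 and 13 of 24 ERG CKO members (46.8% and 54.2%). Members with 4 or 5 markers were 17 of 40 and 22 of 43 in WT (42.5% and 51.2%) and 25 of 79 and 5 of 24 in ERG CKO (31.6% and 20.8%). The groups did not overlap on either share. One step outside the rule were gate cells with a single vein marker, aerocytes not counted. They were 5.48% and 4.01% of all other gate cells in WT and 12.5% and 6.60% in ERG CKO. Selp was found in 12 of 40 and 20 of 43 WT members, against 17 of 79 and 5 of 24 in ERG CKO. Cpe was found in 27 and 29 WT members, against 34 and 8. As the rule uses these genes, the shares are descriptions.

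**Figure D3:**
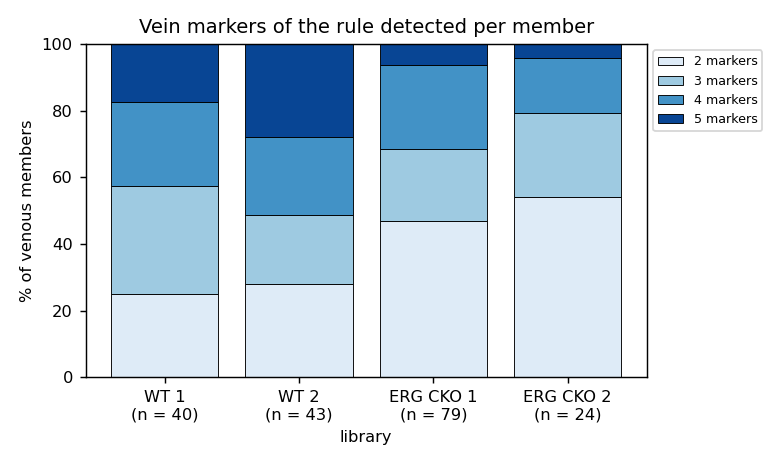
Percent of venous members in each library with 2, 3, 4 or 5 of the vein markers Slc6a2, Bst1, Car8, Selp and Cpe. Members with 2 markers are 10 of 40 and 12 of 43 in the WT libraries and 37 of 79 and 13 of 24 in the ERG CKO libraries.

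Vwf, which the rule does not use, was followed within the marker classes, a split added after the data were seen. Among members with 2 or 3 markers it was at 2035 and 2466 CPM in WT against 1419.5 and 1530.4 CPM in ERG CKO. Among those with 4 or 5 markers it was at 3984 and 4776 CPM in WT against 2517 and 3357 CPM in ERG CKO. In both classes both ERG CKO libraries lay below both WT libraries. Marker number still differed within the classes: of members with 2 or 3 markers, 10 of 23 and 12 of 21 in WT held 2, against 37 of 54 and 13 of 19 in ERG CKO, and of those with 4 or 5 markers, 7 of 17 and 12 of 22 in WT held 5, against 5 of 25 and 1 of 5. The part of marker number in the Vwf difference was not tested. Igfbp5 was at 228 and 161 CPM in WT against 1160.4 and 205 CPM in ERG CKO among members with 2 or 3 markers, and at 143 and 99.8 CPM in WT against 752 and 1208 CPM in ERG CKO among those with 4 or 5, so ERG CKO replicate 2 exceeded WT replicate 1 in the second class but not in the first. Aplnr, the apelin receptor, lay almost wholly in members with 2 or 3 markers, at 47.2 and 21.9 CPM in WT against 106 and 196 CPM in ERG CKO, against 0 to 21.4 CPM in those with 4 or 5.

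Expression was then compared between ERG CKO and WT members, on the summed counts of each mouse. With edgeR and a threshold of 0.05 on the adjusted p, 0 of 4737 genes outside the rule (0.0%) were called. The lowest adjusted p was 0.181. At an unadjusted p under 0.05 there were 307 genes, 151 higher and 156 lower, or 6.48%. DESeq2 called 1 gene, Igfbp5, as higher. In 22.8% of genes both ERG CKO libraries lay above both WT libraries, and in 15.5% both lay below. Without 1 library in turn the edgeR count was 34 (WT replicate 1), 21 (WT replicate 2), 179 (ERG CKO replicate 1) and 82 (ERG CKO replicate 2). Each of these fits sets 1 mouse against 2 and takes the spread from the pair alone, so the lone mouse is assumed to vary like the other group. With the replicate number, which goes with sex, as a term in the model, 25 genes were called, 14 higher and 11 lower. The median SE of a log2 fold change was 0.36. All genes below are therefore given with their values and not as changed.

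Of the 10 genes of lowest p with a fold change above 0, Igfbp5 (log2 fold change 2.17, SE 0.378, adjusted p = 0.239, edgeR) held 503 UMIs in ERG CKO replicate 1, of which 234 lay in 1 cell; its levels appear above. Rgs5, a regulator of G protein signalling known from pericytes, was at 26.2 and 14.4 CPM in WT versus 120.2 and 201 in ERG CKO (log2 fold change 2.79, SE 0.435, adjusted p = 0.181). Its UMIs numbered 7 and 4 in WT members and 62 and 29 in ERG CKO members, at most 8 of them in any 1 cell. Both ERG CKO libraries were above both WT libraries for each of the 10 genes. Mural cell markers summed to 259 and 68.6 CPM in WT members and 62.0 and 6.93 CPM in ERG CKO members. These sums rested on 69 and 19 UMIs in WT and 32 and 1 in ERG CKO. The part of mural cell RNA in the Rgs5 difference was not tested. Of sodium channel genes, Scn7a was at 157 and 43.3 CPM in WT versus 394 and 1343 in ERG CKO (log2 fold change 2.99, SE 0.594, adjusted p = 0.254) and Scn3b at 22.5 and 14.4 CPM in WT versus 73.7 and 132 in ERG CKO (log2 fold change 2.26, SE 0.494, adjusted p = 0.325). Of the 194 Scn7a UMIs of ERG CKO replicate 2, 75 lay in 1 cell. The Scn7a fold change was 1.94 without that library and 4.16 without WT replicate 1. In the other gate cells Scn7a was higher in both ERG CKO libraries too, at 786 and 682 CPM in WT versus 1722 and 2359.8 in ERG CKO, whereas Scn3b overlapped there, at 66.7 and 72.4 CPM in WT versus 69.8 and 64.2 in ERG CKO (interaction 2.32, SE 0.498, adjusted p = 0.0108). The interaction of Scn3b was not called without WT replicate 2 (1.97) or ERG CKO replicate 2 (2.01), nor against capillary and other cells alone (2.005).

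Aplnr, a marker of general capillaries, was at 22.5 and 14.4 CPM in WT versus 67.9 and 145 in ERG CKO in members (log2 fold change 2.27, SE 0.5301, adjusted p = 0.325). Ccnd1, cyclin D1 of the cell cycle, was at 63.7 and 119 CPM in WT versus 277 and 312 in ERG CKO (log2 fold change 1.60, SE 0.3104, adjusted p = 0.251), and Fgf1, a growth factor, at 7.497 and 10.8 CPM in WT versus 48.5 and 90.03 in ERG CKO. Ifi27l2a, an interferon-induced gene, was at 131 and 7.22 CPM in WT versus 806 and 277 in ERG CKO (log2 fold change 2.99, SE 0.701, adjusted p = 0.325); it spread widely over the ERG CKO replicates and 25 of the 35 UMIs of WT replicate 1 lay in 1 cell. Armcx4 at 33.7 and 25.3 CPM in WT versus 111 and 125 in ERG CKO and Rcsd1 at 11.2 and 14.4 CPM in WT versus 58.2 and 166 in ERG CKO completed the set.

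The 10 genes of lowest p with a fold change below 0 were Stmn2, Sgk1, Smad6, Atf3, Gata6, Bmp4, Pim3, Snx21, Gbp2 and Eln, and in each both ERG CKO libraries lay below both WT libraries. Stmn2, a microtubule-destabilising stathmin, was at 367 and 386 CPM in WT versus 85.3 and 180.1 in ERG CKO (log2 fold change −1.73, SE 0.329, adjusted p = 0.251). Of the BMP pathway, the ligand Bmp4 was at 93.7 and 105 CPM in WT versus 34.9 and 34.6 in ERG CKO (log2 fold change −1.56, SE 0.358, adjusted p = 0.325) and the inhibitory Smad6 at 199 and 227 CPM in WT versus 96.9 and 90.03 in ERG CKO (log2 fold change −1.23, SE 0.269, adjusted p = 0.325). Bmp4 rested on 5 UMIs in ERG CKO replicate 2. Gata6, a zinc-finger transcription factor, was at 86.2 and 105 CPM in WT versus 32.96 and 20.8 in ERG CKO (log2 fold change −1.73, SE 0.394, adjusted p = 0.325), with 3 UMIs in that library. Eln, elastin, was at 389.8 and 296 CPM in WT versus 176 and 139 in ERG CKO (log2 fold change −1.14, SE 0.276, adjusted p = 0.334).

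Sgk1, a kinase induced by serum and glucocorticoid, was at 382 and 314 CPM in WT versus 138 and 180.1 in ERG CKO (log2 fold change −1.24, SE 0.2701, adjusted p = 0.325), and Pim3, a cytokine-induced kinase, at 514 and 487 CPM in WT versus 240.4 and 242 in ERG CKO. Gbp2, an interferon-induced GTPase, was at 236 and 238 CPM in WT versus 120.2 and 55.4 in ERG CKO, in the opposite direction to Ifi27l2a. Atf3, a stress-induced transcription factor, was at 1005 and 1231 CPM in WT versus 533 and 478 in ERG CKO (log2 fold change −1.20, SE 0.272, adjusted p = 0.325), and Snx21, a sorting nexin, at 127 and 126 CPM in WT versus 56.2 and 41.6 in ERG CKO. In the other gate cells the fold changes of the 10 genes ran from −0.92 for Stmn2 to −0.27 for Bmp4, and none was called there, where 27 of 11063 genes (0.244%) were. The share of all genes with a fold change below 0 there was not counted, so these directions are a description. The interaction test below called none of these 10 genes.

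**Figure D4:**
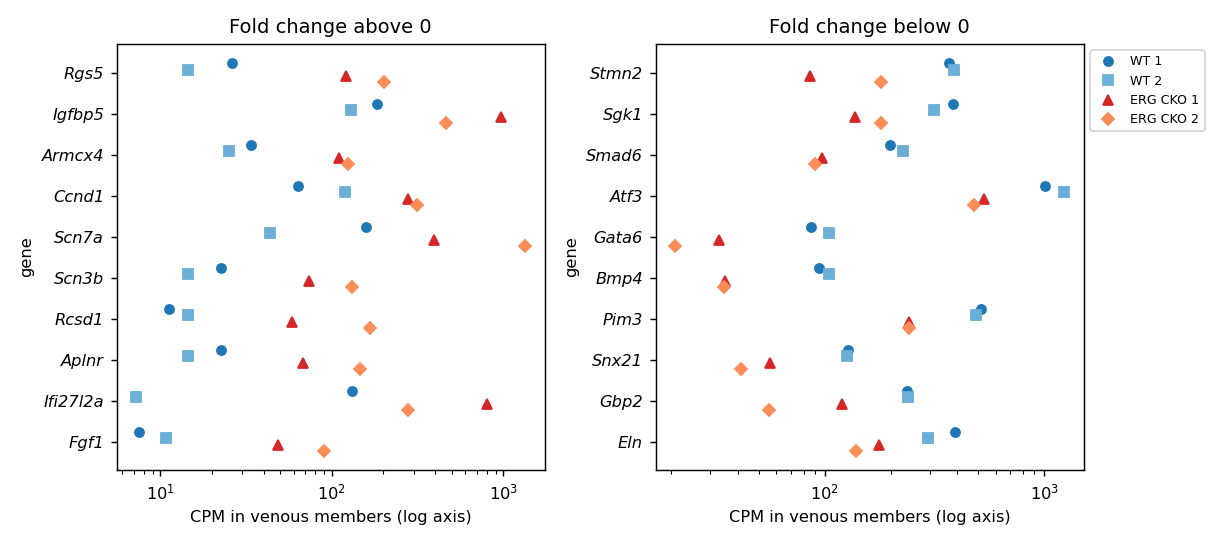
CPM in venous members on a log axis for the 10 genes of lowest p with a fold change above 0 (left) and below 0 (right), in the 4 libraries. None was called; in each gene both ERG CKO points lie on the same side of both WT points, for example Rgs5 at 120 and 201 CPM against 26.2 and 14.4 CPM.

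Gene lists were described by their counts and medians beside all genes tested, whose median log2 fold change was 0.0056. Over all genes tested, 22.8% lay above and 15.5% below WT in both ERG CKO libraries, and the counts of each list are to be read against these shares. Of 16 venous identity genes outside the rule, 14 passed the filter on low counts and 0 were called. Venous identity genes outside the rule above WT in both ERG CKO libraries numbered 1 of 14 (all genes, 22.8%) and those below 4 (all genes, 15.5%), at a median log2 fold change of −0.18. The gene above was Aplnr and those below were Vwf (log2 fold change −0.84, SE 0.269, adjusted p = 0.492), Vcam1 (log2 fold change −1.37, SE 0.4397, adjusted p = 0.492), Icam1, a leukocyte ligand of integrins, and Vegfc; Nr2f2 overlapped (log2 fold change 0.28, SE 0.301, adjusted p = 0.904). Of 18 leukocyte adhesion genes, 12 passed the filter on low counts and 0 were called. Leukocyte adhesion genes above WT in both ERG CKO libraries numbered 1 of 12 (all genes, 22.8%) and those below 3 (all genes, 15.5%), at a median log2 fold change of −0.016. Icam1 was at 603 and 779.8 CPM in WT versus 399 and 187 in ERG CKO and Jam2, a junctional adhesion molecule, at 307 and 282 CPM in WT versus 209 and 222 in ERG CKO, whereas Pecam1, the platelet-endothelial adhesion molecule, overlapped at 1312 and 1220.3 CPM in WT versus 1223 and 1475 in ERG CKO. Esam and Cd47 overlapped too, with log2 fold changes of 0.033 and −0.043.

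Of 18 haemostasis genes, 13 passed the filter on low counts and 0 were called. Haemostasis genes above WT in both ERG CKO libraries numbered 2 of 13 (all genes, 22.8%) and those below 2 (all genes, 15.5%), at a median log2 fold change of 0.18. Neither count exceeded the share of all genes. Vwf and Mmrn2 were the genes below. Those above were Anxa2, a plasminogen-binding annexin (746 and 711 against 870.5 and 852 CPM), and Ptgs1, which makes prostanoids (311 and 259.9 against 329.6 and 388 CPM). Thbd, the thrombin receptor thrombomodulin, was at 1690.5 and 1516 CPM in WT versus 1603 and 2355 in ERG CKO and overlapped. Of 19 Notch and arterial genes, 12 passed the filter on low counts and 0 were called. Notch and arterial genes above WT in both ERG CKO libraries numbered 0 of 12 (all genes, 22.8%) and those below 4 (all genes, 15.5%), at a median log2 fold change of −0.40. Mgp, matrix Gla protein, was at 1904 and 2498 CPM in WT versus 1537 and 1295 in ERG CKO, Gja4, connexin 37, at 154 and 112 CPM in WT versus 69.8 and 48.5 in ERG CKO, and Notch1 at 232 and 253 CPM in WT versus 180.3 and 215 in ERG CKO. These 3 genes and Sema3g were the members below WT. Of 16 general capillary genes, 14 passed the filter on low counts and 0 were called. General capillary genes above WT in both ERG CKO libraries numbered 2 of 14 (all genes, 22.8%) and those below 3 (all genes, 15.5%), at a median log2 fold change of −0.02. Tek, the angiopoietin receptor, was at 562 and 531 CPM in WT versus 289 and 381 in ERG CKO and Ptprb, the phosphatase of that receptor, at 2867 and 2563 CPM in WT versus 2468 and 2001 in ERG CKO. Of 10 aerocyte genes outside the rule, 7 passed the filter on low counts and 0 were called. Aerocyte genes outside the rule above WT in both ERG CKO libraries numbered 2 of 7 (all genes, 22.8%) and those below 0 (all genes, 15.5%), at a median log2 fold change of 0.21. Prx, and Igfbp7 at 22.5 and 21.7 CPM in WT versus 107 and 41.6 in ERG CKO, were the genes above.

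Of 19 genes of angiopoietin, VEGF and BMP signalling, 16 passed the filter on low counts and 0 were called. Genes of angiopoietin, VEGF and BMP signalling above WT in both ERG CKO libraries numbered 0 of 16 (all genes, 22.8%) and those below 9 (all genes, 15.5%), at a median log2 fold change of −0.32. The genes below were the receptors Tek, Flt1 and Acvrl1, the ligands Vegfc and Bmp4, and the BMP targets Smad6, Smad7, Id1 and Id2. Flt1, a VEGF receptor, was at 843 and 935 CPM in WT versus 727 and 831 in ERG CKO, Eng at 911 and 931 CPM in WT versus 880.2 and 983 in ERG CKO and Bmpr2 at 915 and 953 CPM in WT versus 696 and 1323 in ERG CKO, and the last 2 overlapped. Of 21 endothelial transcription factors, 20 passed the filter on low counts and 0 were called. Endothelial transcription factors above WT in both ERG CKO libraries numbered 4 of 20 (all genes, 22.8%) and those below 3 (all genes, 15.5%), at a median log2 fold change of −0.14. Fli1, Ets2, Mef2c and Hhex were above WT and Elf1, Sox7 and Gata6 below, whereas the flow-responsive Klf2 was at 3621 and 2303 CPM in WT versus 3786 and 3026 in ERG CKO, Klf4 at 2534 and 1278 CPM in WT versus 1382 and 1039 in ERG CKO, Epas1 at 1852 and 2047 CPM in WT versus 1774 and 1932 in ERG CKO and Foxf1 at 701 and 426 CPM in WT versus 686 and 665 in ERG CKO. Of 19 matrix genes, 11 passed the filter on low counts and 0 were called. Matrix genes above WT in both ERG CKO libraries numbered 3 of 11 (all genes, 22.8%) and those below 2 (all genes, 15.5%), at a median log2 fold change of −0.0078. Col4a1, a chain of collagen IV, was at 352 and 329 CPM in WT versus 574 and 526 in ERG CKO (log2 fold change 0.63, SE 0.259, adjusted p = 0.638) and was above WT with Col4a2 and Nid1, opposite to Eln and Ltbp4.

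Of 18 junction and barrier genes, 12 passed the filter on low counts and 0 were called. Junction and barrier genes above WT in both ERG CKO libraries numbered 1 of 12 (all genes, 22.8%) and those below 3 (all genes, 15.5%), at a median log2 fold change of 0.025. Cav1, caveolin 1, was at 1844 and 1859 CPM in WT versus 1214 and 1309 in ERG CKO and Plvap, the diaphragm protein of fenestrae, at 1169 and 1051 CPM in WT versus 1076 and 1316 in ERG CKO. Of 16 vasoactive mediator genes, 11 passed the filter on low counts and 0 were called. Vasoactive mediator genes above WT in both ERG CKO libraries numbered 3 of 11 (all genes, 22.8%) and those below 2 (all genes, 15.5%), at a median log2 fold change of −0.15. Ece1, which makes endothelin, was at 772 and 776 CPM in WT versus 543 and 727 in ERG CKO, and Npr3, the natriuretic peptide clearance receptor, at 322 and 116 CPM in WT versus 506 and 346 in ERG CKO. Of 22 interferon-stimulated genes, 16 passed the filter on low counts and 0 were called. Interferon-stimulated genes above WT in both ERG CKO libraries numbered 4 of 16 (all genes, 22.8%) and those below 3 (all genes, 15.5%), at a median log2 fold change of 0.37. Both counts were near the shares of all genes. Ifi27l2a, Gbp4 and Bst2 (401 and 552 against 587 and 699 CPM) were among those above WT and Iigp1 (1083 and 899 against 793 and 416 CPM), Irf1 (731 and 563 against 430.4 and 298 CPM) and Gbp2 were below, and the median of the list was −0.75 without ERG CKO replicate 1. Of 13 antigen presentation genes, 11 passed the filter on low counts and 0 were called. Antigen presentation genes above WT in both ERG CKO libraries numbered 1 of 11 (all genes, 22.8%) and those below 4 (all genes, 15.5%), at a median log2 fold change of −0.22. H2-K1 was the gene above, and H2-Aa, H2-Ab1 and H2-Eb1 of MHC class II and Tap2 were those below. H2-D1 of class I was at 2714 and 3415 CPM in WT versus 3400.5 and 3546 in ERG CKO and overlapped. B2m of class I was at 2271 and 2899 CPM in WT versus 2871 and 2798 in ERG CKO and overlapped. Cd74 of class II was at 409 and 1007 CPM in WT versus 601 and 658 in ERG CKO and overlapped too.

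The lists with the lowest medians were inflammatory signalling and dissociation stress. Of 22 inflammatory signalling genes, 11 passed the filter on low counts and 0 were called. Inflammatory signalling genes above WT in both ERG CKO libraries numbered 0 of 11 (all genes, 22.8%) and those below 6 (all genes, 15.5%), at a median log2 fold change of −0.75. The genes below were Nfkbia, Nfkbiz, Icam1, Vcam1, Socs3 and Ch25h. Nfkbia, the inhibitor of NF-kB, was at 1589 and 1336 CPM in WT versus 1264 and 499 in ERG CKO and Socs3, the feedback inhibitor of cytokine receptors, at 1657 and 1404 CPM in WT versus 959.7 and 727 in ERG CKO (log2 fold change −0.91, SE 0.2798, adjusted p = 0.46). Of 14 dissociation stress genes, 14 passed the filter on low counts and 0 were called. Dissociation stress genes above WT in both ERG CKO libraries numbered 0 of 14 (all genes, 22.8%) and those below 11 (all genes, 15.5%), at a median log2 fold change of −0.81. Junb was at 3801 and 3971 CPM in WT versus 2235 and 1925 in ERG CKO, Jun at 4059 and 3469.6 CPM in WT versus 2214 and 2438 in ERG CKO, Egr1 at 2583 and 3112 CPM in WT versus 1392 and 2022 in ERG CKO and Ier3 at 2849 and 2834 CPM in WT versus 1685 and 1655 in ERG CKO. These are immediate early genes known to be induced while tissue is digested. Both lists thus lay on the same side, and the part of tissue handling in the inflammatory list was not tested. Leaving out 1 library or changing another setting left both medians below 0, from −1.39 to −0.52 for inflammatory signalling and from −1.02 to −0.71 for dissociation stress, over 14 alternatives that share most of their cells.

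Whether a group difference was particular to members was tested as an interaction, in a model with the mouse and the cell class, against the other gate cells of the same mice. A negative interaction means that the log2 fold change of ERG CKO over WT was lower in members than in the other gate cells. Of 10391 genes tested outside the rule, 48 (0.462%) were called with edgeR, 20 higher and 28 lower in members relative to the other gate cells, and 563 had an unadjusted p under 0.05. DESeq2 called 3 of these 48, Pla2g4a, Timp3 and Aplnr, and no other gene outside the rule. Without WT replicate 1 the count was 87, and without the mouse in the model it was 1 (Pla2g4a).

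Most genes lower in members relative to other gate cells were higher in WT members than in other WT gate cells. In 22 of these 28, members were above the other gate cells in both WT mice, against 23.8% of all genes tested, and in 22 of 28 both ERG CKO libraries were above both WT libraries in the other gate cells, against 27.4% of all genes tested. Because the WT levels enter both counts and the interaction, these counts are descriptions. Pla2g4a, cytosolic phospholipase A2, which frees arachidonic acid, was at 89.96 and 93.9 CPM in WT versus 69.8 and 83.1 in ERG CKO in members. It rose in the other gate cells, where it was at 1.54 and 1.33 CPM in WT versus 19.3 and 32.8 in ERG CKO (log2 fold change 4.07, SE 0.427, adjusted p = 0.0434; interaction −4.31, SE 0.575, adjusted p = 7.07e-06). Timp3, an inhibitor of metalloproteinases, was at 1623 and 1076 CPM in WT versus 1603 and 803 in ERG CKO in members. Timp3 elsewhere in the gate was at 585 and 408 CPM in WT versus 1600.03 and 995 in ERG CKO (interaction −1.61, SE 0.271, adjusted p = 0.000356). Cyp1a1, a xenobiotic-metabolising enzyme, was at 112 and 213 CPM in WT versus 446 and 118 in ERG CKO in members. Cyp1a1 elsewhere in the gate was at 7.72 and 56.4 CPM in WT versus 354 and 83.03 in ERG CKO (interaction −2.19, SE 0.365, adjusted p = 0.000349). Over 16 alternative settings its interaction ran from −3.49 to −1.17.

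Vcam1 and Ptgs2 were lower in both ERG CKO libraries in members and higher in both in the other gate cells. Vcam1 was at 603 and 1480.3 CPM in WT versus 554 and 256 in ERG CKO in members. Vcam1 elsewhere in the gate was at 33.3 and 22.4 CPM in WT versus 66.1 and 73.9 in ERG CKO (interaction −2.57, SE 0.372, adjusted p = 2.7e-05). Ptgs2, the inducible cyclooxygenase that acts after Pla2g4a, was at 424 and 455 CPM in WT versus 258 and 69.3 in ERG CKO in members. Ptgs2 elsewhere in the gate was at 4.01 and 5.67 CPM in WT versus 8.31 and 35.8 in ERG CKO (interaction −3.16, SE 0.545, adjusted p = 0.000569). It was not called without ERG CKO replicate 2 (−1.52). Within the marker classes the member difference was not seen throughout. Vcam1 overlapped in both classes. Among members with 2 or 3 markers it was at 149 and 885 CPM in WT against 149 and 177 CPM in ERG CKO. Among those with 4 or 5 markers it was at 1018 and 2059.9 CPM in WT against 1043 and 483 CPM in ERG CKO. Ptgs2 overlapped among members with 2 or 3 markers, at 267 and 14.6 CPM in WT against 106 and 65.3 CPM in ERG CKO, and was at 566 and 884 CPM in WT against 440.1 and 80.6 CPM in ERG CKO among those with 4 or 5. Ch25h overlapped among members with 4 or 5 markers, at 588 and 898 CPM in WT against 624 and 376 CPM in ERG CKO. For Ch25h (interaction −2.23, SE 0.403, adjusted p = 0.000865) and Cytl1 (interaction −2.03, SE 0.363, adjusted p = 0.000793) the levels are given above; Ch25h was not called without WT replicate 2 (−1.48) or ERG CKO replicate 1 (−1.34), nor was Cytl1 without the latter (−1.04). Selp was at 1.85 and 0.667 CPM in WT versus 8.64 and 4.81 in ERG CKO in the other gate cells. As a rule gene it decides which cells are members, so its level there depends on the rule and carries no test. In the other gate cells Vcam1, Ptgs2 and Pla2g4a were higher in ERG CKO replicate 2 than in replicate 1. Ch25h, Cytl1, Timp3 and Cyp1a1 were higher there in replicate 1, and Vwf and Nr2f2 overlapped between the groups. Single-marker cells, aerocytes not counted, were 12.5% and 6.60% of the other gate cells in ERG CKO and 5.48% and 4.01% in WT. Their part in these differences was not tested.

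Nfkbiz, an NF-kB cofactor, was at 405 and 519.9 CPM in WT versus 242 and 83.1 in ERG CKO in members. Nfkbiz elsewhere in the gate was at 191 and 189 CPM in WT versus 227 and 132 in ERG CKO (interaction −1.40, SE 0.295, adjusted p = 0.00911), and was not called without WT replicate 2 (−1.21). The chemokines Cxcl9 and Cxcl10 rested on few cells. All 9 Cxcl9 UMIs of members lay in 1 cell of WT replicate 2, and in the other gate cells it had UMIs only in ERG CKO replicate 1 (49.5 CPM), so its fitted value has no bound; it was not called without WT replicate 2 (−8.89). Cxcl10 was at 3.75 and 256 CPM in WT versus 124 and 0 in ERG CKO in members (interaction −2.16, SE 0.504, adjusted p = 0.024), and its direction turned without WT replicate 2 (1.89); against capillary and other cells alone it was not called (−2.10). Of arterial genes, Gja5, connexin 40, had 29 UMIs in WT members and 0 in ERG CKO members, at least 11.7-fold lower against a floor of 3 UMIs over the group. It was at 15.1 and 8.34 CPM in WT versus 8.64 and 11.4 in ERG CKO in the other gate cells (adjusted p = 0.0231, edgeR), and was not called without WT replicate 2 (−7.48) or ERG CKO replicate 1 (−9.28). Fbln2, an arterial matrix gene, was at 33.7 and 79.4 CPM in WT versus 42.7 and 0 in ERG CKO in members. Fbln2 elsewhere in the gate was at 10.2 and 8.01 CPM in WT versus 35.2 and 26.7 in ERG CKO (interaction −2.77, SE 0.622, adjusted p = 0.0169) and was not called without WT replicate 2 (−1.85).

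Of the 20 genes higher in members relative to other gate cells, 19 were below the other gate cells in both WT mice, against 37.0% of all genes tested; here too the WT levels enter the interaction. Aplnr led those of endothelium, at 108 and 133 CPM in WT versus 56.2 and 62.9 in ERG CKO in the other gate cells, against the higher ERG CKO levels in members given above (interaction 3.32, SE 0.477, adjusted p = 2.7e-05). It kept its call without each library in turn. Igfbp7, an aerocyte-enriched gene, was at 22.5 and 21.7 CPM in WT versus 107 and 41.6 in ERG CKO in members. Igfbp7 elsewhere in the gate was at 836 and 1336 CPM in WT versus 633 and 1128 in ERG CKO (interaction 2.42, SE 0.5303, adjusted p = 0.0132), but was not called without WT replicate 2 (2.02) or ERG CKO replicate 1 (0.74). With capillary and other cells as the reference, which leaves out the 364 aerocytes and the arterial and lymphatic cells, it was 1.24 and not called (adjusted p = 0.755, edgeR). Sftpc (interaction 3.88, SE 0.4697, adjusted p = 1.32e-06), Sftpb (interaction 4.35, SE 0.649, adjusted p = 3.79e-05) and Slc34a2 (interaction 4.52, SE 0.742, adjusted p = 0.000282), genes of alveolar type 2 cells, were called as well. None of the 3 was called without ERG CKO replicate 1 (2.13, 1.70 and 2.40), and with cells bearing markers of other lineages left out Sftpc was not called (1.49) and Slc34a2 turned (−0.97). In members, Sftpb had 34 UMIs in ERG CKO replicate 1, against 2, 2 and 1 in WT replicates 1 and 2 and ERG CKO replicate 2. For Slc34a2 it was 32 UMIs in ERG CKO replicate 1, against 1 in each other library. Sftpc had 125 UMIs there, against 18, 8 and 8. In that library 68.4% of members held at least 2 markers of another lineage. Epithelial RNA of the other gate cells, given above, was lower in both ERG CKO libraries than in both WT libraries. The parts of members and of other gate cells in these interactions were not tested.

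**Figure D5:**
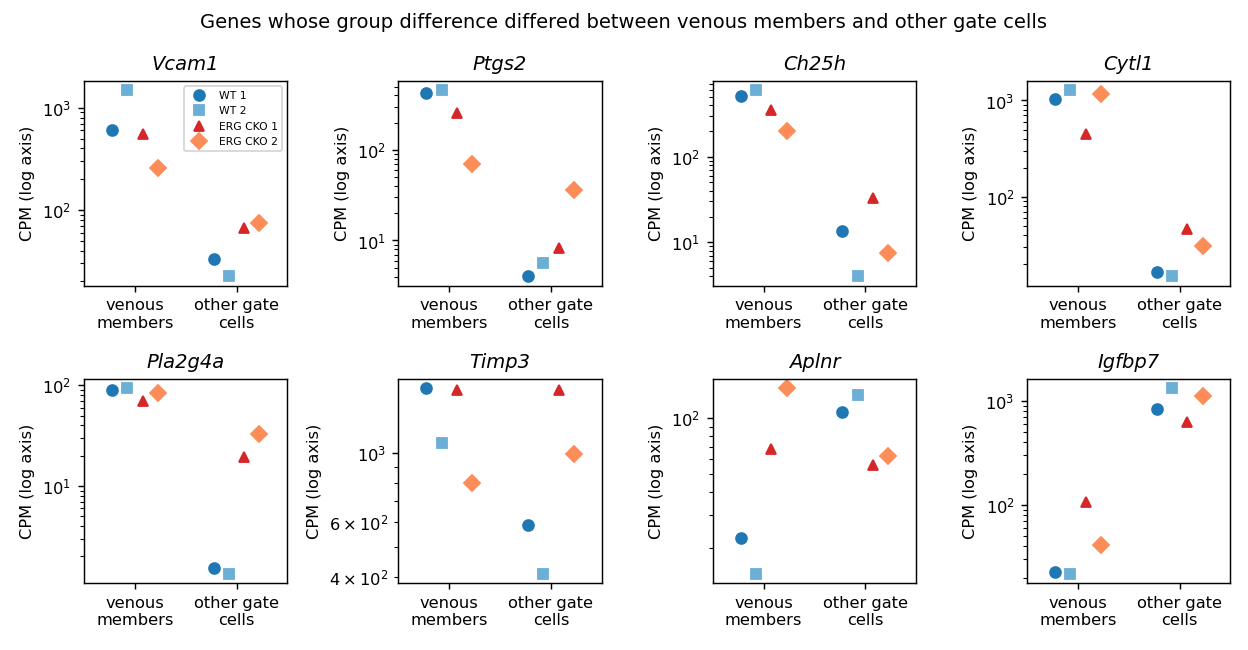
CPM on log axes, with a scale of its own in each panel, in venous members and in other endothelial gate cells for 8 genes called in the interaction test, by library. Vcam1, Ptgs2 and Ch25h are lower in both ERG CKO libraries than in both WT libraries in members; in Aplnr the ERG CKO libraries are higher in members and lower in other gate cells.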

How the data were processed

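The authors dissociated whole lungs, prepared 10x Genomics libraries, sequenced them on a NextSeq 500 and deposited raw UMI counts per gene and cell for all 4 libraries in 1 matrix, with no normalization. Cell Ranger 3.1.0 and build mm10 are given by the submitters' processing notes; the annotation is not given in the sources used here. The study filtered cells by limits it does not state, so that filter was not applied, and its cell names were rebuilt here by the rule, from which differences may come. A minimum of 200 detected genes removed no cell.

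Members were found by the rule above and their counts summed per mouse. Genes were tested with edgeR 4.0.16 (quasi-likelihood, TMM, filterByExpr; R 4.3.3), adjusted by Benjamini-Hochberg over all genes tested with 0.05 as the threshold for a call. The interaction model held mouse, cell class and their group term. Shares were compared by the exact permutation test over mice. DESeq2 1.42.0, the filter, thinning, the replicate block, markers, the gate, doublets (Scrublet in scanpy 1.11.5, 60 cells or 0.641% in all; kept), other lineages and each library left out were alternatives. Programs were tested on simulated data. Each mouse is a replicate, and 2 per group measure the spread between these mice only. The replicate numbers did not pair the samples.

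The members, gene lists and markers were chosen with earlier results of these data known. Named genes were the rule genes and Vwf, the 15 genes highest by ratio, the 10 genes of lowest p in each direction, the 10 interaction genes of lowest p, any list, profile or lowest-p gene also called in the interaction (added after the values were seen), those of each list highest in CPM, and Erg; haemoglobin, X- and Y-linked sex genes are not described. List members named for lying apart between groups were chosen after their values were seen. Reads of overlapping genes were not separated here. Of 305 genes described or listed, 205 had a RefSeq promoter in the table used.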

Additional observations from a re-analysis of the deposited data

Results flagged for a closer look

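The ERG CKO against WT log2 fold change differed between venous members and the other endothelial gate cells, by the interaction test of edgeR, in the following named genes. Members were lower relative to the other gate cells for Pla2g4a (−4.31), Vcam1 (−2.57), Cyp1a1 (−2.19), Timp3 (−1.61), Ptgs2 (−3.16), Cytl1 (−2.03), Cxcl10 (−2.16), Fbln2 (−2.77), Nfkbiz (−1.40) and Ch25h (−2.23). The same held for Cxcl9 (−16.60) and Gja5 (−9.07), whose fitted values depend on the prior count because 1 group had 0 UMIs. Members were higher relative to the other gate cells for Sftpc (3.88), Aplnr (3.32), Sftpb (4.35), Slc34a2 (4.52), Igfbp7 (2.42) and Scn3b (2.32). Groups of 2 mice are too small for a test of single outlying samples.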

How the results depend on the processing

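The difference in venous share, 1.49 points, ranged from −1.21 to 4.203 points when 1 library was left out, and its sign changed without ERG CKO replicate 1 (−1.21), with at least 3 vein markers (−0.44) and with cells bearing markers of other lineages left out (−0.35). Thinned to 1000 UMIs it was 0.22 points. As a share of all cells, with cells bearing markers of other lineages left out, it was 1.02% and 1.35% for WT replicates 1 and 2, above the 0.807% and 0.864% of the ERG CKO libraries.

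The count of genes called between groups in members, 0 with edgeR, was 1 with DESeq2, 1 after thinning (360 genes tested), 1 without the top cell of every gene, 2 with at least 3 vein markers, 3 without Selp among the markers, 18 with cells bearing markers of other lineages left out, and 49 with no filter on low counts. Without 1 library it was 21 to 179. With the replicate block it was 25; same-numbered samples share the sex of the mouse by their transcripts, the labels give no pairing, and the correlation of their deviations was 0.0956 over 2 pairs. Every one of the 20 genes of lowest p kept its direction in all alternatives it could be fitted in, and Igfbp5 was called in 11 of 16. The 20 genes were picked by p from the same counts, and the alternatives share most of their cells. A kept direction is therefore no independent support.

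Of genes called in the interaction, 48, the count was 101 without Selp among the markers, 0 after thinning (edgeR; 81 at an unadjusted p under 0.05, no run of DESeq2), 3 with DESeq2 and 1 with no replicate block, where the mouse was left out of the model. Without 1 library it was 33 to 87. Directions turned for Sftpb (−0.26) and Igfbp7 (−0.90) after thinning, for Slc34a2 (−0.97) with cells bearing markers of other lineages left out, and for Cxcl10 (1.89) without WT replicate 2, its range without 1 library being −11.4 to 1.89; the cause was not tested. Few members limit precision, above all the 24 of ERG CKO replicate 2.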
